A study of Mus musculus with 24 samples.

Results

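Genes whose products move sodium, potassium, chloride or water in the brain were followed 2 h after the onset of focal ischaemia in mice. These 7 genes were Atp1b1, Atp1b2, Aqp4, Slc12a2, Slc12a5, Abcc8 and Trpm4, chosen by gene symbol from the platform annotation out of 19505 genes named there. Each had 1 probe set (a group of probes summarised as 1 signal), so the rule of taking the probe set of highest mean had nothing to choose between. All 12 animals were male C57Bl/6j mice, 8 to 10 weeks old. In 8 of them, called ischemic here, the middle cerebral artery was occluded for 90 min with an intraluminal filament, a model of ischaemic stroke, and the other 4 had sham surgery. All mice were killed 30 min after the procedure and perfused with cold saline, and the hemisphere ipsilateral (IP) and the hemisphere contralateral (CL) to the surgery were frozen separately. RNA of each hemisphere was measured on its own whole-transcript Affymetrix array, giving 8 ischemic IP, 8 ischemic CL, 4 sham IP and 4 sham CL arrays. A whole hemisphere holds tissue inside and outside the territory of the occluded artery, and the labels give no infarct size. In such bulk tissue fewer cells of a type and less RNA per cell cannot be told apart.

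These proteins set the ion and water balance that fails early in ischaemia. The sodium pump (Na+,K+-ATPase) exports sodium and imports potassium at the cost of ATP. When ATP runs out, neurons and astrocytes gain sodium and chloride, and water follows into the cells, which is called cytotoxic oedema. Aquaporin-4, in the astrocyte end-feet around brain vessels, is the main water channel of the brain. The cation-chloride cotransporters NKCC1 (Slc12a2) and KCC2 (Slc12a5) respectively load chloride into cells and extrude it from neurons. The sulfonylurea receptor SUR1 (Abcc8) and the monovalent cation channel TRPM4 form a channel complex studied in brain oedema after stroke.

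The arrays did not all measure these genes equally well. On 20 arrays the profiles were close to each other, with a median Pearson correlation to the other arrays of 0.981 to 0.989 across probe sets. The other 4, both hemispheres of ischemic mouse 3 and of sham mouse 1, correlated at 0.328 to 0.55 with those 20. A signal counted as above background when it was higher than 95% of the negative control signals on the same array. That limit was 5.17 to 5.74 on the log2 scale on the 20 arrays, which had 37.0% to 45.1% of probe sets above it, and 7.41 to 7.61 on the 4, which had 3.04% to 5.08%. Results are therefore given on all 24 arrays and on the 20. Atp1b1, Atp1b2, Aqp4, Slc12a2, Slc12a5 and Abcc8 were above background on 20 of the 20 arrays. On the 4 arrays Atp1b1 was above background on 2 and each of the other 6 genes on 0. Trpm4 was above background on 0 of the 24 arrays, so its signals are given below as not above background. Any log2 difference of Trpm4 compares such signals and is not a measured change.

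In none of the 5 comparisons was any of the 7 genes called at an adjusted p under 0.05 (limma with Benjamini-Hochberg adjustment over 22206 probe sets). Between the hemispheres of the ischemic mice 0 of 7 were called, where 0.0856% of all probe sets tested were called on 24 arrays and 0.135% on 20. The other backgrounds on 24 arrays were 0% between the hemispheres of sham mice, 0% for the difference between these side differences, 0.0045% between ischemic and sham IP hemispheres and 0% between the CL hemispheres. On 20 arrays they were 0%, 0%, 0.149% and 0%. With so few probe sets called, 0 of 7 is close to what the background gives, and the intervals below carry the result. At an unadjusted p under 0.05, 1 of the 7 genes (Atp1b2) passed between the hemispheres of ischemic mice, against 4.13% of all probe sets. In the other 4 comparisons 0 of 7 passed, against 6.26%, 5.12%, 1.01% and 0.365% of all probe sets, given in the order sham hemispheres, difference of side differences, IP and CL. On 20 arrays 0 of 7 passed at that level in any comparison, against 7.1% of all probe sets between the hemispheres of ischemic mice and 5.49%, 5.91%, 7.48% and 4.59% in the others. Ischemic and sham values also overlapped for 7 of 7 genes in each hemisphere. Groups without overlap were found for 0.18% of all probe sets on the IP side and 0.0766% on the CL side on all arrays, and for 2.38% and 1.38% on the 20.

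**Figure D1:**
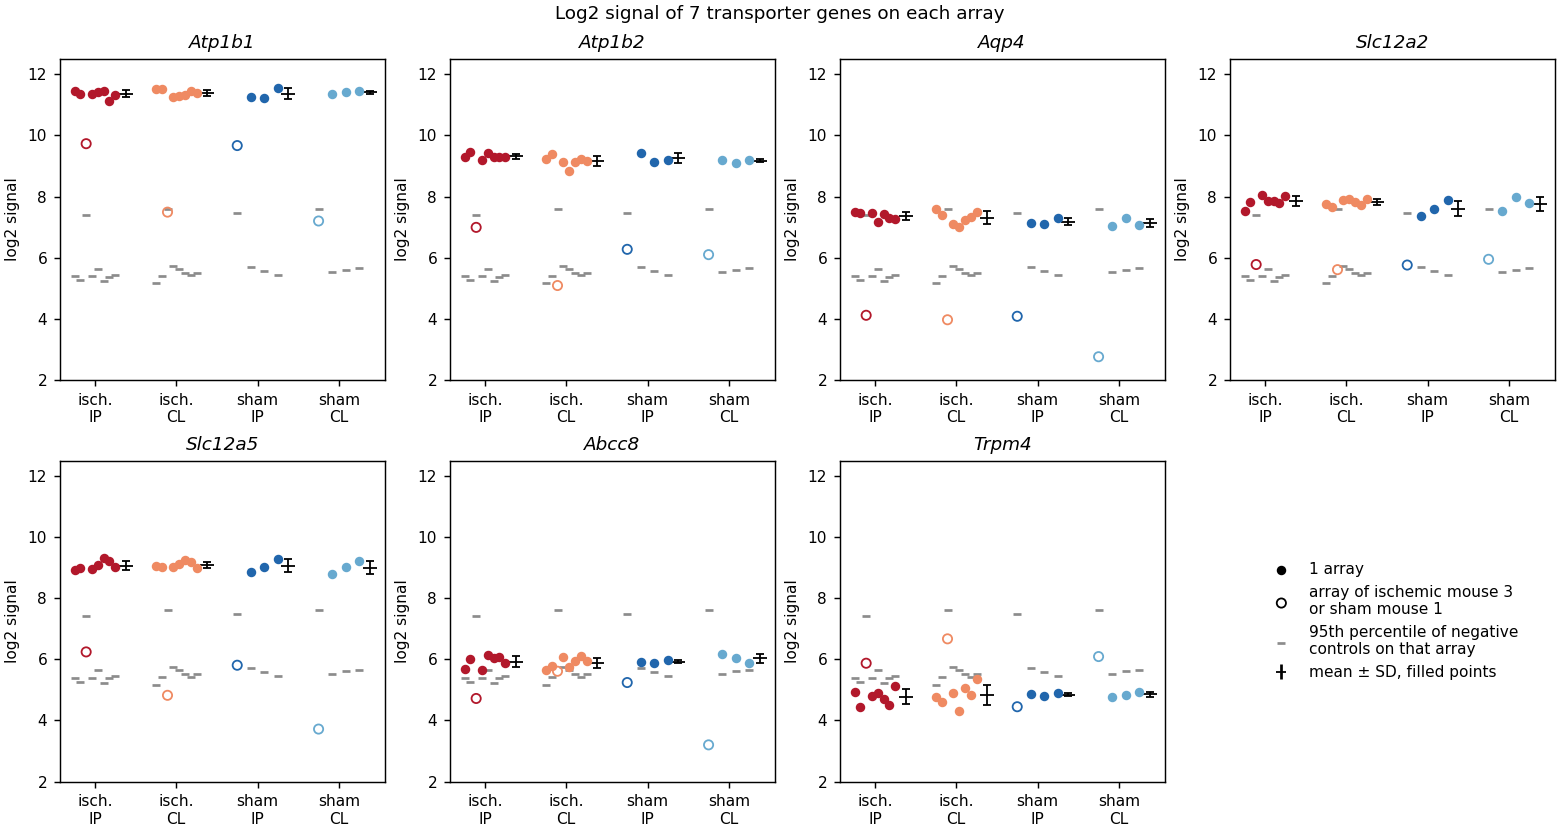
Log2 signal (vertical axis) of each of the 7 genes on each of the 24 arrays, by group (horizontal axis), with open points for both hemispheres of ischemic mouse 3 and sham mouse 1, gray dashes for the 95th percentile of the negative controls on the same array, and black bars for mean ± SD of the filled points. The filled points of the 4 groups overlap for every gene, the open points lie apart for most genes, and all Trpm4 points lie below the dash of their own array.

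The sodium pump pairs a catalytic alpha with a beta subunit, and 2 of the 7 genes encode beta subunits. Atp1b1 encodes the β1 subunit, which is needed to fold the pump and bring it to the membrane and is abundant in neurons. Its log2 signal on the 7 ischemic IP arrays without mouse 3 was 11.13 at the lowest, 11.37 at the median and 11.45 at the highest, and 9.73 in mouse 3. The 7 ischemic CL arrays ran from 11.26 through a median of 11.39 to 11.53, with 7.49 in mouse 3. Sham mice 1 to 4 had 9.67, 11.28, 11.24 and 11.57 on the IP side and 7.20, 11.35, 11.41 and 11.47 on the CL side. The arrays of the 2 mice that stood apart were thus the lowest in every group, and the remaining values of the groups overlapped. Without those mice the group means lay within 0.05 of each other, in the order sham CL, ischemic CL, ischemic IP and sham IP, and the within-group SDs were 0.06 to 0.18, so no neighbours in that order differed beyond their spread.

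The side difference of Atp1b1, IP minus CL within a mouse, had no common sign. It was positive in 4 of 8 ischemic mice and, without mouse 3, ran from -0.34 to 0.16 with a median of -0.06. Fitted over 24 arrays it was 0.25 ± 0.28 (SE), with a 95% interval of -0.34 to 0.85, and over 20 arrays -0.03 ± 0.08, with an interval of -0.21 to 0.15. The narrower interval corresponds to 0.864- to 1.11-fold. In sham mice the side differences were 2.47, -0.07, -0.17 and 0.10, the first from the mouse that stood apart.

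Atp1b2 encodes the β2 subunit, a pump subunit of glia that also acts as an adhesion molecule. It was the only gene of the 7 with a higher signal on the IP side in each of the 7 ischemic mice measured above background. In mouse 3 the IP signal was also the higher, but neither hemisphere was above its array's background limit. The 7 ischemic IP arrays without mouse 3 ran from 9.21 through a median of 9.29 to 9.46, with 6.99 in mouse 3, and the CL arrays from 8.85 through 9.17 to 9.39, with 5.09 in mouse 3. In sham mice 1 to 4 the signals were 6.27, 9.44, 9.15 and 9.19 on the IP side and 6.10, 9.20, 9.11 and 9.21 on the CL side. The ranges of the groups overlapped, and the difference was visible only within mice.

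In ischemic mice 1 to 8 the IP minus CL difference of Atp1b2 was 0.07, 0.07, 1.90, 0.08, 0.57, 0.16, 0.08 and 0.11. It was thus small in most mice, largest in mouse 3, where both signals were not above background, and next in mouse 5. Without mouse 3 the median was 0.08. A higher IP signal in 7 of 7 mice without mouse 3 was found for 1.22% of all probe sets, and in 8 of 8 for 0.707%. The fitted difference was 0.38 ± 0.18 (SE) over 24 arrays, with an interval of 0.01 to 0.75, an unadjusted p of 0.0453 and an adjusted p of 0.94 (limma). Over 20 arrays it was 0.16 ± 0.08, with an interval of -0.02 to 0.34 (0.988- to 1.27-fold), an unadjusted p of 0.0728 and an adjusted p of 0.771 (limma). With mouse 5 left out of the 20 arrays as well, an alternative added after seeing the data, it was 0.10 ± 0.08, with an interval of -0.07 to 0.26 and an adjusted p of 0.893 (limma). It did not pass the threshold in any of these fits. Sham mice 1 to 4 had side differences of 0.17, 0.24, 0.04 and -0.02, positive in 3 of 4. The difference between ischemic and sham mice in this side difference was 0.27 over 24 arrays, with an interval of -0.37 to 0.92, and 0.08 over 20, with an interval of -0.25 to 0.41. A side difference particular to ischaemia was therefore not shown for Atp1b2.

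Markers of astrocytes, which express Atp1b2 and Aqp4, are given here for both. All 11 astrocyte markers measured were above background on at least 10 of the 20 arrays. Their mean side difference was 0.05 ± 0.10 (SD, n = 7) in ischemic mice and 0.04 ± 0.05 (SD, n = 3) in sham mice without the mice that stood apart, and 0.67 in ischemic mouse 3 and 0.69 in sham mouse 1. On the arrays of those 2 mice the mean astrocyte marker signal was 5.20 to 5.93, under background limits of 7.41 to 7.61. The values of 0.67 and 0.69 are thus differences between signals and not measured folds. The part of astrocyte content in the Atp1b2 difference was not tested.

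Of the 14 listed genes of pump subunits and FXYD proteins, small membrane proteins that tune the pump, 10 were measured and 7 were above background on at least 10 of the 20 arrays. None of the 10 was called in any comparison on 24 or 20 arrays. Their median side difference in ischemic mice was 0.16 on 24 arrays and 0.10 on 20, beside 0.00 over all genes in each. In sham mice it was 0.11 on 24 arrays and 0.06 on 20, beside -0.005 and -0.009 over all genes, so a higher median was not particular to ischemic mice. These medians include Atp1a4, Fxyd3 and Fxyd4, which were not above background. Fxyd1 encodes phospholemman, a pump regulator, and had the smallest p of the list apart from the 7 genes. Its side difference was 0.37 ± 0.14 (SE) over 24 arrays, with an unadjusted p of 0.0148 and an adjusted p of 0.94, and 0.26 ± 0.10 over 20, with 0.0205 and 0.59 (limma). On the 20 arrays it was higher on the IP side in 6 of 7 ischemic mice, with a median of 0.28, and in 1 of 3 sham mice. The difference between ischemic and sham mice in the Fxyd1 side difference was 0.37 over 24 arrays, with an interval of -0.13 to 0.87. Over 20 arrays it was 0.20, with an interval of -0.20 to 0.59. A side difference particular to ischaemia was therefore not shown for Fxyd1 either. Fxyd6, a pump regulator found in brain, had a side difference in ischemic mice of 0.22 ± 0.15 over 24 arrays and 0.12 ± 0.11 over 20.

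**Figure D2:**
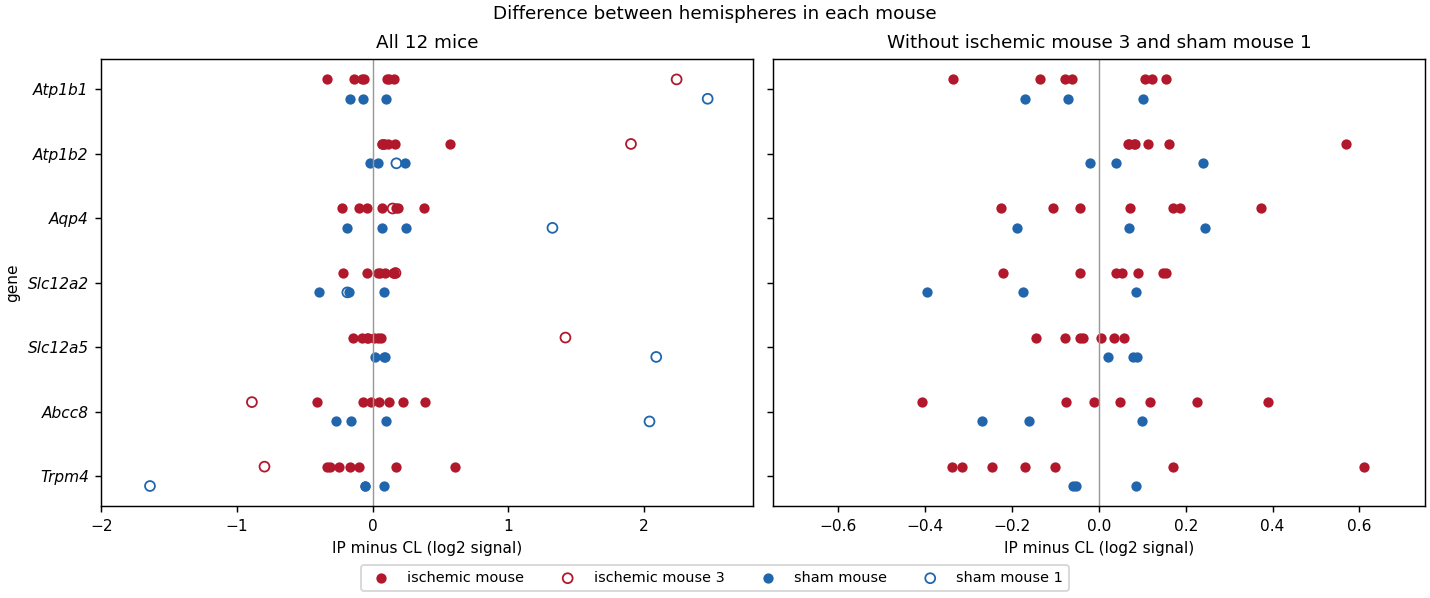
IP minus CL log2 signal (horizontal axis) of each gene (vertical axis) in each of the 12 mice on the left, and without ischemic mouse 3 and sham mouse 1 on the right, with 1 point per mouse and a vertical line at no difference. Atp1b2 lies right of the line in all ischemic mice, the other genes lie on both sides of it, and the open points of the left panel, most of them differences of signals not above background, reach 2.47 for Atp1b1.

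Aqp4 had higher means after ischaemia than after sham surgery on both sides, with overlapping values. The 7 ischemic IP arrays without mouse 3 ran from 7.17 through a median of 7.42 to 7.50, with 4.12 in mouse 3, and the 7 ischemic CL arrays from 7.00 through 7.33 to 7.61, with 3.97 in mouse 3. Sham mice 1 to 4 had 4.08, 7.12, 7.12 and 7.30 on the IP side and 2.76, 7.05, 7.30 and 7.06 on the CL side. The ischemic IP values overlapped the sham IP values, and so did the CL values. On 20 arrays the means were 7.37 ± 0.13 (SD, n = 7) for ischemic IP, 7.31 ± 0.21 (SD, n = 7) for ischemic CL, 7.18 ± 0.11 (SD, n = 3) for sham IP and 7.14 ± 0.14 (SD, n = 3) for sham CL. Each step in that order was smaller than the largest of the group SDs, 0.21.

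Between the hemispheres of ischemic mice the Aqp4 difference was positive in 5 of 8. It was 0.07 ± 0.15 (SE) over 24 arrays, with an interval of -0.24 to 0.38, and 0.06 ± 0.09 over 20, with an interval of -0.13 to 0.26. The sham differences in mice 1 to 4 were 1.32, 0.07, -0.19 and 0.24. Between surgeries on 20 arrays, ischemic IP was above sham IP by 0.19, with an interval of -0.07 to 0.45 (0.953- to 1.36-fold), and ischemic CL above sham CL by 0.17, with an interval of -0.14 to 0.48. The adjusted p was 0.765 for the first and 1.00 for the second (limma). On 24 arrays the same differences were 0.56, with an interval of -0.98 to 2.09, and 0.85, with an interval of -1.03 to 2.72. The 24-array intervals are wide enough to hold a large fall and a large rise.

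Aquaporin-4 is held at the end-feet by the dystrophin complex and by agrin in the basement membrane, and shares them with the potassium channel Kcnj10. Of 12 listed genes of aquaporins and this anchoring complex, 11 were measured and 6 were above background on at least 10 of the 20 arrays, with Aqp1, Aqp9, Dmd, Lama2 and Sgcd not above it on most. None was called in any comparison. The median side difference in ischemic mice was 0.07 on 24 arrays and 0.01 on 20, with the genes not above background included. Agrn had a side difference of -0.16 ± 0.12 (SE) over 24 arrays and -0.14 ± 0.09 over 20, and Kcnj10 of 0.18 ± 0.13 and 0.08 ± 0.07. These had the 2 smallest p of the list apart from the 7 genes.

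Slc12a2 encodes NKCC1, which takes up sodium, potassium and chloride together with water. The 7 ischemic IP arrays without mouse 3 ran from 7.54 through a median of 7.85 to 8.04, with 5.78 in mouse 3, and the CL arrays from 7.67 through 7.81 to 7.92, with 5.61 in mouse 3. The sham mice, in order, had 5.76, 7.36, 7.59 and 7.88 on the IP side and 5.95, 7.53, 7.99 and 7.79 on the CL side. The ranges overlapped in both hemispheres, with sham mouse 2 the lowest of the 10 mice on both sides. The order of the group means on 20 arrays was ischemic IP, ischemic CL, sham CL and sham IP over a span of 0.23, and the within-group SDs were 0.10 to 0.26.

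Among the 7 genes on 20 arrays, Slc12a2 had the largest fitted difference between ischemic and sham IP hemispheres, 0.23, with an interval of -0.07 to 0.54 (0.95- to 1.46-fold) and an adjusted p of 0.752 (limma). Its size varied with the 3 sham mice. Leaving out each mouse of the 20 arrays in turn, also added after seeing the data, gave 0.11 without sham mouse 2 (-0.22 to 0.44, adjusted p 0.926, limma) and 0.37 without sham mouse 4 (0.03 to 0.71, adjusted p 0.433, limma), the lowest and the highest. On 24 arrays it was 0.44, with an interval of -0.57 to 1.45. The side difference in ischemic mice was 0.05 ± 0.11 (SE) over 24 arrays and 0.03 ± 0.08 over 20, with intervals of -0.18 to 0.27 and -0.15 to 0.21. It was positive in 6 of 8 ischemic mice, from -0.22 to 0.17. In sham mice it was -0.19, -0.18, -0.39 and 0.09, negative in 3 of 4. The difference between these side differences was 0.22 on 24 arrays (-0.17 to 0.61) and 0.19 on 20 (-0.13 to 0.52), and it did not pass the test.

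Slc12a5 encodes KCC2, the neuronal chloride exporter that keeps GABA inhibitory. Over all 8 ischemic mice the IP signals ran from 6.24, in mouse 3, through a median of 8.99 to 9.31, and the CL signals from 4.82, in mouse 3, through 9.05 to 9.25. Without mouse 3 their means were 9.06 ± 0.15 (SD, n = 7) and 9.09 ± 0.09 (SD, n = 7). Sham mice 1 to 4 had 5.81, 8.87, 9.03 and 9.29 on the IP side and 3.72, 8.79, 9.01 and 9.20 on the CL side. The 4 group means on 20 arrays spanned 0.09, against within-group SDs of 0.09 to 0.21.

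The side difference of Slc12a5 on 20 arrays had the narrowest interval of the 7 genes in ischemic mice. It was -0.03 ± 0.07 (SE), with an interval of -0.18 to 0.12 (0.884- to 1.09-fold), and ran from -0.15 to 0.06 over the 7 mice. On 24 arrays it was 0.15 ± 0.22, with an interval of -0.30 to 0.61, with 1.42 in mouse 3. The sham differences were 2.09, 0.08, 0.02 and 0.09, positive in 4 of 4 mice, as they were for 5.2% of all probe sets, and in 3 of 3 without mouse 1, as for 11.5%. The fitted sham difference was 0.57 over 24 arrays (-0.07 to 1.21) and 0.06 over 20 (-0.16 to 0.29). The neuron marker list moved with the mice that stood apart, with a mean side difference of 1.47 in ischemic mouse 3 and 1.84 in sham mouse 1, against 0.01 ± 0.05 (SD, n = 7) in the other ischemic mice and -0.01 ± 0.01 (SD, n = 3) in the other sham mice. On the CL arrays of the mice that stood apart the mean neuron marker signal was 6.27 and 5.76, under background limits of 7.60 and 7.61. The values of 1.47 and 1.84 are thus differences between signals and not measured folds. The part of neuron content in the Atp1b1 and Slc12a5 values of those 2 mice was not tested.

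Of 15 listed cation-chloride cotransporters and their WNK and STE20 kinases, 14 were measured and 7 were above background on at least 10 of the 20 arrays. None was called in any comparison, and the median side difference in ischemic mice was 0.05 on 24 arrays and -0.02 on 20. These medians include the genes not above background, whose differences are not measured changes. The 2 other genes with the smallest p, Slc12a1 (the kidney cotransporter NKCC2) and Wnk4 (a regulatory kinase), were both among the 7 not above background. No difference is given for them for that reason.

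Abcc8 encodes SUR1, the regulatory subunit of ATP-sensitive potassium channels and of the SUR1-TRPM4 channel. Its signal lay just above the background limit. The ischemic IP arrays without mouse 3 ran from 5.66 through a median of 6.00 to 6.13, with 4.72 in mouse 3, and the CL arrays from 5.65 through 5.93 to 6.09, with 5.61 in mouse 3. Among sham mice the signals were 5.24, 5.90, 5.88 and 5.97 on the IP side and 3.20, 6.17, 6.04 and 5.88 on the CL side. The values of all 4 groups overlapped on the 20 arrays, where the means spanned 0.14 and the SDs were 0.05 to 0.19. So close to the limit, part of the signal may be background, and the folds below can understate a change.

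The side difference of Abcc8 was positive in 4 of 8 ischemic mice. It was -0.08 ± 0.21 (SE) over 24 arrays, with an interval of -0.52 to 0.37, and 0.04 ± 0.10 over 20, with an interval of -0.17 to 0.25. Ischemic IP was 0.01 above sham IP on 20 arrays, with an interval of -0.28 to 0.30 (0.824- to 1.23-fold), and 0.03 above it on 24, with an interval of -0.59 to 0.64. In the CL hemispheres the difference was -0.14 on 20 arrays (-0.43 to 0.15) and 0.53 on 24 (-0.48 to 1.54). The sign of this last value turned with the arrays of the 2 mice that stood apart, sham mouse 1 having the lowest CL signal, 3.20.

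Trpm4 was not above background on any array. On the 20 arrays its signals were 4.30 to 5.37, below limits of 5.17 to 5.74, and the 4 group means lay within 0.07 of each other. In contrast to the other genes, the CL arrays that stood apart had higher signals of Trpm4, 6.67 in ischemic mouse 3 and 6.09 in sham mouse 1. The IP signal was also higher in ischemic mouse 3, at 5.87, but not in sham mouse 1, at 4.45. All of these were under limits of 7.41 to 7.61. Whether Trpm4 transcripts were absent or below what the array measures cannot be told apart. Of the 6 listed genes of SUR1-TRPM4 and ATP-sensitive potassium channels, Abcc8 and the pore subunit Kcnj11 were above background on at least 10 of the 20 arrays, and Abcc9, Kcnj8, Trpm4 and Trpm5 were not. None of the 6 was called, and no median is given for a list with 4 genes not above background. Kcnj8, a pore subunit, and Trpm5, a cation channel, had the smallest p besides the 7 genes, and no difference is given for them, since neither was above background.

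**Figure D3:**
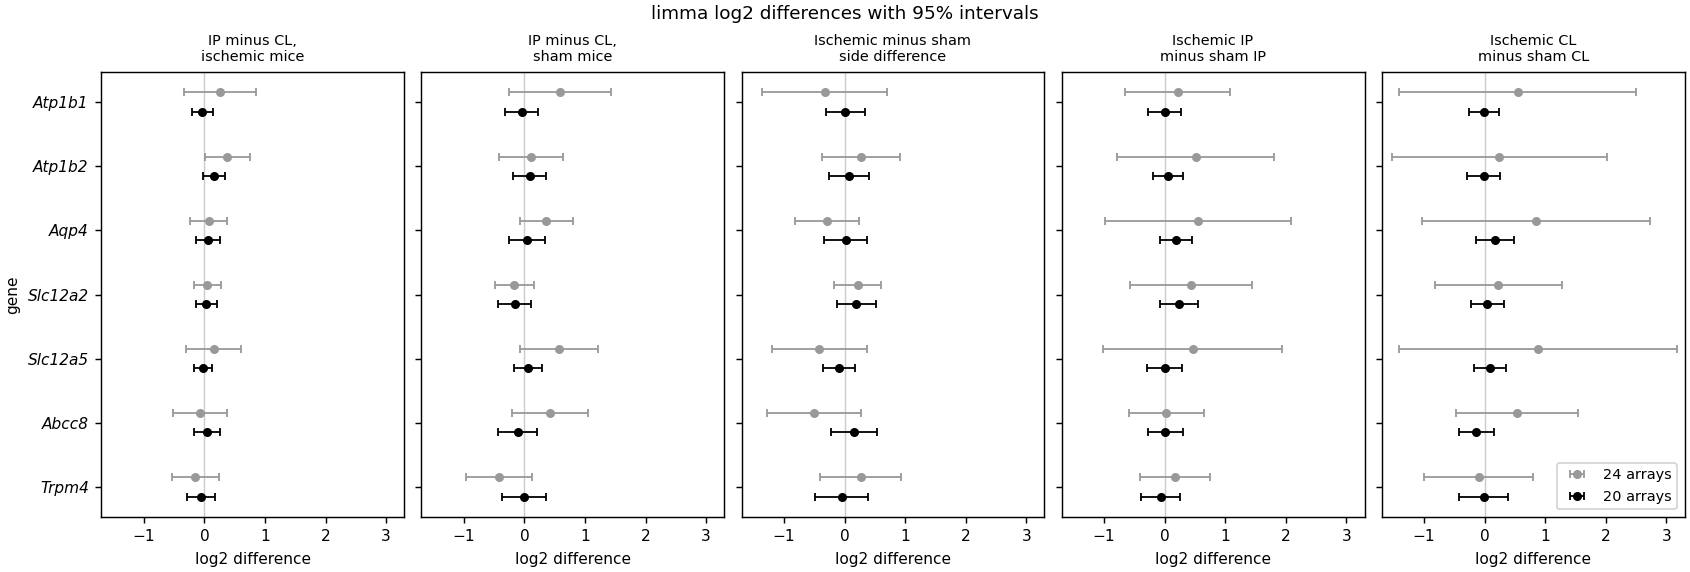
Fitted log2 difference (horizontal axis, point) and its 95% interval (bar) of each gene (vertical axis) in the 5 comparisons, on 24 arrays in gray and on the 20 arrays without ischemic mouse 3 and sham mouse 1 in black. The black intervals all include 0 and, for the 6 genes other than Trpm4, lie between -0.43 and 0.54. Trpm4 is plotted from signals not above background, and the gray intervals reach 3.17 for Slc12a5 in the CL hemispheres.

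Between surgeries the remaining genes showed no difference past the threshold. On 20 arrays Atp1b1 differed by 0.00 between ischemic and sham IP hemispheres (-0.27 to 0.27), Atp1b2 by 0.06 (-0.19 to 0.31) and Slc12a5 by 0.00 (-0.29 to 0.29). In the CL hemispheres the values were -0.01 (-0.26 to 0.23), -0.02 (-0.29 to 0.26) and 0.09 (-0.17 to 0.36), and Slc12a2 had 0.04 (-0.23 to 0.32). On 24 arrays the differences of Atp1b1, Atp1b2 and Slc12a5 were 0.22, 0.51 and 0.46 in the IP hemispheres and 0.55, 0.24 and 0.88 in the CL hemispheres, and that of Slc12a2 in the CL hemispheres was 0.22. The 24-array intervals of the 6 genes other than Trpm4 ran from -1.01 to 2.09 in the IP and from -1.53 to 3.17 in the CL comparison, and so hold rises of more than 4-fold. The narrower intervals rest on 3 sham mice. Between the hemispheres of sham mice the intervals of these 6 genes lay between -0.49 and 1.42 on 24 arrays and between -0.43 and 0.36 on 20. For the difference between the side differences of ischemic and sham mice they lay between -1.36 and 0.92 and between -0.36 and 0.53.

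A wider list of 22 sodium, proton, bicarbonate and calcium transporters and volume-regulated channels gave 19 measured genes, all 19 above background on at least 10 of the 20 arrays. None was called in any comparison. The median side difference in ischemic mice was 0.00 on 24 arrays and -0.04 on 20, and the median difference between ischemic and sham IP hemispheres was 0.36 on 24 arrays and -0.02 on 20, beside 0.05 and 0.01 over all genes. On 24 arrays 19 of 19 genes of the list had a positive difference in that comparison, beside 54.9% of all genes. On 20 arrays 9 of 19 did, beside 53.5%. On 24 arrays 12 of 12 neuron, 10 of 11 astrocyte and 9 of 9 oligodendrocyte markers had a positive difference too. For choroid plexus, erythroid and neutrophil markers, not above background, it was 0 of 8, 0 of 2 and 2 of 6. The 19 of 19 was thus not particular to this list. Atp2b3, a plasma membrane calcium pump, had a side difference of -0.30 ± 0.17 (SE) on 24 arrays and -0.09 ± 0.08 on 20, and Slc24a2, a sodium-calcium exchanger, 0.25 ± 0.16 and 0.08 ± 0.09. In both the value shrank once the 2 mice were left out.

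**Figure D4:**
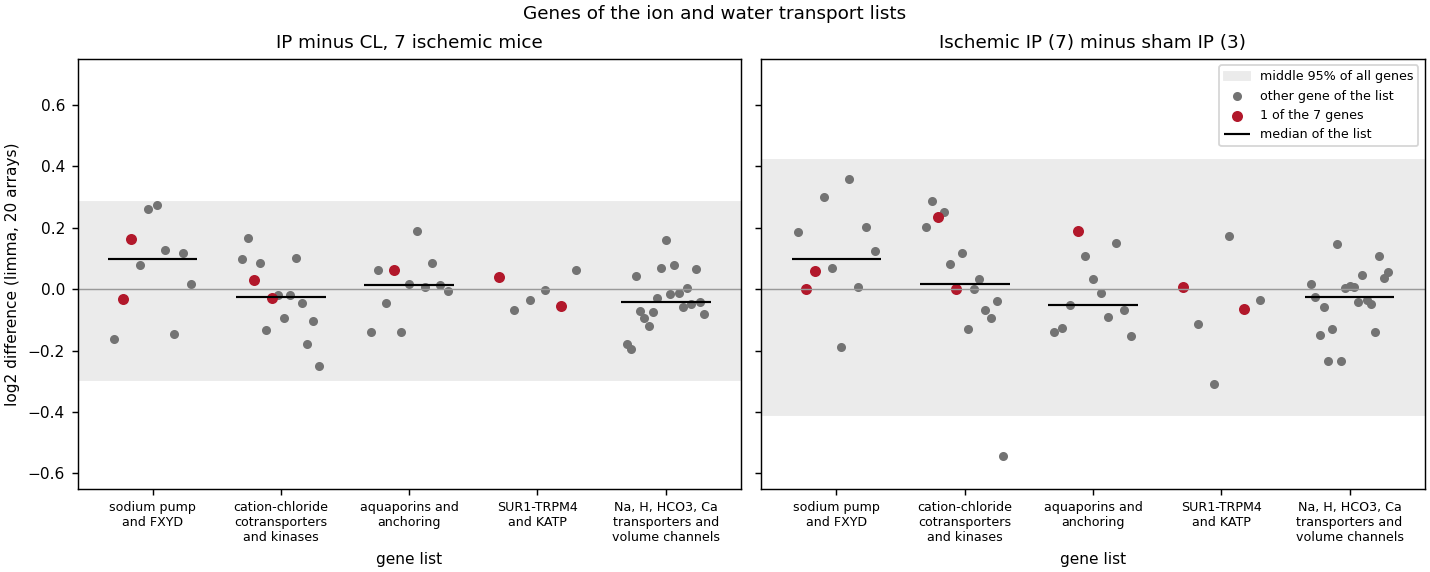
Fitted log2 difference on 20 arrays (vertical axis) of each gene in the 5 transport lists (horizontal axis), between the hemispheres of ischemic mice on the left and between ischemic and sham IP hemispheres on the right, with the 7 genes in red, list medians as black bars (none for the SUR1-TRPM4 list) and the middle 95% of all genes shaded. On the left the shaded band runs from -0.30 to 0.28 and all listed genes lie within it. On the right it runs from -0.41 to 0.42, and Wnk4, not above background, lies below it. Genes not above background, among them Trpm4, Wnk4, Slc12a1, Kcnj8 and Trpm5, are plotted too, and their points are not measured changes. Where a median is drawn, such genes of the list enter it.

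6 of the 7 genes varied less from array to array than most genes. Without the mice that stood apart the pooled within-group SD was 0.12 for Atp1b1, 0.13 for Atp1b2, 0.16 for Aqp4, 0.17 for Slc12a2, 0.15 for Slc12a5 and 0.16 for Abcc8. The median over all genes was 0.24, and 97.2%, 95.5%, 85.1%, 83.2%, 90.1% and 84.9% of genes had a larger SD than these 6 in turn. Trpm4, at background, had 0.26, with 44.2% of genes larger. These shares are over all genes, whether above background or not. On each of the 20 arrays only 37.0% to 45.1% of probe sets were above background. A comparison with genes of like signal was not made, so the shares do not set these 6 apart from other genes above background.

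Across the 20 arrays the 7 genes did not move as a block. The 21 pairwise Pearson correlations of their log2 signals ran from -0.36 to 0.46, with a median of 0.11, over arrays that include both hemispheres of the same mice. On all 24 arrays the 15 pairs without Trpm4 had 0.688 to 0.981 and the 6 pairs with Trpm4 -0.784 to -0.547, so these high values rest on the 4 arrays that stood apart.

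For each of the 7, the 3 genes with the highest Pearson correlation over the 20 arrays were found among all genes, as a description. Aqp4 had the closest, Nkain4 at 0.877, Ptma at 0.857 and Cfap36 at 0.83, of which Nkain4 belongs to a family named for its interaction with the sodium pump. Atp1b1 was followed by Aif1 at 0.792, Acad9 at 0.785 and Gipc1 at 0.784, and Atp1b2 by Pkib at 0.799, Wdcp at 0.796 and Zhx3 at 0.769. Aif1 and Pkib were above background on 0 of the 20 arrays and Zhx3 on 9, so their values partly follow background. Slc12a2 was followed by Ciao2a at 0.823, Vcpip1 at 0.818 and Btaf1 at 0.817, and Slc12a5 by Hnrnpa0 at 0.778, Alad at 0.755 and Bag5 at 0.747. Btaf1 was above background on 10 of the 20 arrays and Cfap36 on 16. Abcc8 had the lowest values, with Kmt5b at 0.693 and with Esm1 at 0.679 and Prl7a2 at 0.67, the latter 2 never above background. For Trpm4 the genes were Adam34l, Myoz1 and Ttll9 at 0.834, 0.798 and 0.763, none of them above background on any of the 20. Each value is the highest among 19505 genes, and signals not above background reached 0.834. A value near this size therefore does not by itself mark a link between 2 genes.

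The labelled tissue was checked against cell type markers. On at least 10 of the 20 arrays 12 of 12 neuron, 11 of 11 astrocyte and 9 of 9 oligodendrocyte markers measured were above background, as were 8 of 10 endothelial and 3 of 7 microglial markers. Of the choroid plexus markers, 0 of 8 measured were above background, with Ttr and Folr1 among those below, and ependymal cells were not analysed here. Erythroid and neutrophil lists had 0 of 2 and 0 of 6. No side difference is given for these 3 lists. The mean side differences in the 7 ischemic mice were 0.07 ± 0.17 (SD) for oligodendrocyte, 0.04 ± 0.13 for endothelial and 0.08 ± 0.13 for microglial markers. In the 3 sham mice without mouse 1 they were -0.14 ± 0.07 (SD), negative in 3 of 3, for oligodendrocyte, 0.03 ± 0.18 for endothelial and 0.09 ± 0.17 for microglial markers. On 20 arrays the fitted difference between ischemic and sham mice in the side difference was positive for 9 of 9 oligodendrocyte markers. Its median was 0.19, and it was positive for 51.0% of all genes. On 24 arrays it was positive for 6 of 9, with a median of 0.13, beside 50.4% of all genes. None of the 9 was called. The 9 markers were read on the same arrays, with 3 sham mice among the 20, and are not 9 independent observations. Sox9, an astrocyte transcription factor, had the smallest p of the astrocyte list, with a side difference of 0.46 ± 0.16 (SE) on 24 arrays (adjusted p 0.94, limma) and 0.39 ± 0.10 on 20 (adjusted p 0.256, limma). It was positive in 7 of the 7 ischemic mice, as were 1.22% of all probe sets, and in 1 of 3 sham mice. The 11 astrocyte markers ran from -0.13 to 0.39 in that fit, with 4 of them negative.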

How the data were processed

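Both hemispheres of 12 mice were measured on 24 arrays. The authors deposited 1 log2 signal per probe set and array, and the submitters' processing notes name Affymetrix Expression Console; for its version, the normalization and the annotation build the sources used here give nothing. That the scale is log2 was inferred from the value range. Of 29129 probe sets, 6923 array controls were left out and 22206 tested, without a filter on signal. Of these, 19572 had 1 gene symbol in the platform annotation and 2634 none; all 19505 genes were found by Entrez identifier in a RefSeq table (GRCm38.p6, names only), with 0 symbols differing. 0 pairs of arrays were identical.

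Comparisons between hemispheres and their interaction with surgery used limma 3.58.1 (R 4.3.3; lmFit, eBayes) on 24 arrays. Mouse was a fixed block, because the titles pair the hemispheres of each animal. On the 20 arrays, deviations from the group means correlated at 0.11 to 0.31 within a mouse, and at a median of -0.02 between mice. Comparisons between surgeries used the 12 arrays of a side without a block. Benjamini-Hochberg adjustment covered every probe set tested, the threshold was 0.05, and intervals are 95%. The scripts were tested on simulated data.

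The 7 genes, the 5 transport lists and the 8 cell type lists were chosen with earlier results of these data known. Named besides the 7 were, per list, genes called or the 2 with the smallest p between hemispheres of ischemic mice, and the 3 genes most correlated with each of the 7. Of the cell type lists only Sox9 is given by value. Alternatives were no block, quantile normalization, median centring, array quality weights, leaving out the dimmest 25% of probe sets, leaving out the 4 arrays and leaving out each mouse. Dropping block and 4 arrays together, and leaving out each mouse of the 20 arrays in turn, were added after seeing the data. The number of arrays limits the precision. Figures used matplotlib 3.10.9 in Python 3.11.15.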

Additional observations from a re-analysis of the deposited data

Results flagged for a closer look

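Single values far from the rest of their group were found in 31 of 63 groups examined, where chance gives about 1 in 20 for groups that are independent. These were not: side differences come from the same signals, and the groups of 7 are parts of the groups of 8. Of these, 29 were hemispheres or side differences of ischemic mouse 3 and sham mouse 1, whose arrays stood apart over all probe sets. In ischemic mouse 3 the IP signals were 9.73 for Atp1b1, 6.99 for Atp1b2, 4.12 for Aqp4, 5.78 for Slc12a2, 6.24 for Slc12a5 and 4.72 for Abcc8. Its CL signals were 7.49 for Atp1b1, 5.09 for Atp1b2, 3.97 for Aqp4, 5.61 for Slc12a2, 4.82 for Slc12a5 and 6.67 for Trpm4. In sham mouse 1 the IP signals were 6.27 for Atp1b2, 4.08 for Aqp4, 5.81 for Slc12a5 and 5.24 for Abcc8. Its CL signals were 7.20 for Atp1b1, 6.10 for Atp1b2, 2.76 for Aqp4, 3.72 for Slc12a5, 3.20 for Abcc8 and 6.09 for Trpm4. Side differences (IP minus CL) far from the others were 2.24 for Atp1b1, 1.90 for Atp1b2 and 1.42 for Slc12a5 in ischemic mouse 3. In sham mouse 1 they were 2.47 for Atp1b1, 2.09 for Slc12a5, 2.04 for Abcc8 and -1.64 for Trpm4. Of the 7 genes in these mice, Atp1b1 on the IP side was above background and the others were not on either side, so these are differences between signals and not measured folds. The cause of the low signals on these arrays was not tested.

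The other 2 values came from arrays like the rest. Atp1b1 was low on the IP side of ischemic mouse 7, at 11.13 among 7 arrays, and Atp1b2 had a side difference of 0.57 in ischemic mouse 5, far above the other 6 mice of that group. The fitted Atp1b2 difference of 0.16 on 20 arrays includes this mouse and was 0.10 without it.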

How the results depend on the processing

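In none of the 141 alternative fits was any of the 7 genes called, the smallest adjusted p being 0.383 (limma). The direction of their differences was less stable. The sign turned for 13 of 35 values without the 4 arrays that stood apart, 11 of 35 with array quality weights, 2 of 35 with quantile normalization, 0 of 35 with median centring and 28 of the 336 that left out a mouse of the comparison. Leaving out dim probe sets or dropping the block cannot change a difference in this design. Leaving out each mouse of the 20 arrays in turn (added after seeing the data) turned the 20-array sign for 42 of 280 values. The number of probe sets called between hemispheres of ischemic mice was 19 and became 0 with no replicate block, 6 with quantile normalization, 64 with array quality weights, 30 without the 4 arrays and 29 without them and with no replicate block (added after seeing the data). Leaving out 1 mouse gave 10 to 23, and 18 to 27 among the 20 arrays. Between the hemispheres of sham mice it was 0, and 0 to 1 leaving out 1 mouse of the 24 or the 20 arrays. For the difference between side differences it was 0, and 0 to 8 leaving out 1 mouse of the 20 arrays, the highest without ischemic mouse 6. Between ischemic and sham IP hemispheres it was 1, and became 50 with array quality weights, 33 without the 4 arrays and 0 to 17 leaving out 1 mouse, the highest without ischemic mouse 3, or 24 to 46 among the 20 arrays (24, 26, 27, 29, 31, 33 and 46), the highest without ischemic mouse 5. Between CL hemispheres it was 0, and 1 with array quality weights. Leaving out dim probe sets moved the median of all genes to 0.13 and 0.12 in the IP and CL comparisons. Averaging probe sets per gene gave no alternative, since each of the 7 had 1. Signal over background limits Abcc8 and Trpm4, and 3 or 4 sham mice limit every comparison with sham. Why the counts moved was not tested.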
